A study of Homo sapiens with 5 samples.

Results

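The transcripts of telomerase, of the shelterin complex and of associated telomere factors were examined in RPE-1 cells through 10 genes: TERT, TERC, DKC1, TERF1, TERF2, TERF2IP, TINF2, ACD, POT1 and RTEL1. The genes were taken by name from their known roles and not by a cut on a measured value, but with earlier results of these data known. Each matched 1 of the 64252 gene rows of the deposited count table, of which 56105 carry a GENCODE symbol. RPE-1 is a human retinal pigment epithelial line that was immortalized by introducing TERT, so TERT reads can come from the introduced sequence as well as from the gene itself, and counts per gene do not separate these sources. Polyadenylated RNA was taken 48 hr after transfection with 5 µM siRNA by the labels. The siCtrl group, labelled WT, received ON-TARGET Control #1 (3 libraries), and the siFAM53C group, labelled FAM53C KD, received a pool of ON-TARGETplus siRNAs against FAM53C (2 libraries). All 5 libraries come from 1 cell line, and no untransfected sample was analysed here. The labels do not say whether the replicates came from separate cultures, so p-values measure only the spread between these libraries, which may be technical. Counts on genes totalled 24099968, 19694561 and 19260124 in siCtrl (replicates 1, 2 and 3) and 25615415 and 22993116 in siFAM53C (replicates 1 and 2).

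Chromosome ends carry long runs of a short repeat that shrink with each round of replication. Telomerase adds the repeat back: TERT is its reverse transcriptase, TERC its RNA template, and dyskerin (DKC1) a protein that holds and stabilizes the RNA. Shelterin covers the repeats and hides the end from DNA damage signalling. Its subunits TRF1 (TERF1) and TRF2 (TERF2) bind the double-stranded repeat, RAP1 (TERF2IP) rides on TRF2, TIN2 (TINF2) bridges TRF1 and TRF2 to TPP1 (ACD), and POT1, held by TPP1, binds the single-stranded overhang. RTEL1 is a helicase that unwinds telomeric loops and other DNA structures during replication. Most differentiated human cells keep TERT silent, and supplying it is a common way to immortalize a line.

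The part of TERC that telomerase copies is short, and it is shown because it defines the repeat that telomerase adds. It lies on GRCh38 at chr3:169764995-169765024, minus strand, which corresponds to bases 37 to 66 of the 541-base GENCODE 44 transcript, and the 11 bases in capitals (46 to 56) are the template, complementary to the telomere repeat, written in DNA letters.
TERC template: attttttgtCTAACCCTAACtgagaagggc
TERC is a single-exon non-coding RNA gene (ENSG00000270141, chr3:169764520-169765060, minus strand), and its mature RNA mostly lacks a poly(A) tail. It had 3 counts in siCtrl replicate 1 and 0 in each of the other 4 libraries. A count of 0 allows up to 3 counts, or between 0.113 and 0.157 CPM (counts per library total, scaled with TMM factors), and this covers counting error only. TERC was thus at or under this floor in every library, and no fold change is given.

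The knockdown of FAM53C was checked before any comparison. FAM53C had 60.9, 59.7 and 57.6 CPM in siCtrl and 14.2 and 22.3 in siFAM53C. Both siFAM53C libraries lay far below the controls (log2 fold change -1.71, SE 0.19, adjusted p = 0.003625, edgeR quasi-likelihood test, Benjamini-Hochberg adjusted). The libraries also fell apart in a way that did not follow the siRNA. Along the first principal component, siCtrl replicates 1 and 2 (-31.5 and -47.4) lay apart from siCtrl replicate 3 (33.7) and siFAM53C replicate 2 (44.9), with siFAM53C replicate 1 (0.264) in between. Differences were therefore also computed inside each side (siFAM53C replicate 1 with siCtrl replicates 1 and 2, and siFAM53C replicate 2 with siCtrl replicate 3), and the edgeR model was refitted with side as a term. The sides were set from these same libraries, with those above the median of this component apart from the rest. siFAM53C replicate 1 was itself the median, and only this rule put it with siCtrl replicates 1 and 2. On this component it lay about as far from siCtrl replicate 1 as from siCtrl replicate 3. The calls with the split term rest on that placement.

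The cells were also checked against their label. Of the 9 retinal pigment epithelium markers, the transcription factor genes OTX2 (281 to 403) and MITF (713 to 1053) had the most counts in every library. RPE65, an enzyme of the visual cycle, had 0 counts in all 5 libraries, RLBP1 at most 1, and TYR and TYRP1 at most 2. BEST1 had 4 to 15 counts, PMEL 13 to 29 and SERPINF1 20 to 79, so most of these markers were low or absent. The simple epithelial keratin gene KRT8 had 4508 to 8442 counts, whereas CDH1, EPCAM and KRT19 had at most 5 in any library, and the fibroblast-type genes VIM and FN1 were abundant. Of the 4 mesenchymal markers, COL1A1 was called higher (log2 fold change 0.74, adjusted p = 0.03098, edgeR quasi-likelihood test, Benjamini-Hochberg adjusted). The others did not pass the test, and 0.489% of all genes were called higher. The summed level of these 4 genes was 8551, 9431 and 11680 CPM in siCtrl and 8959 and 11040 CPM in siFAM53C, which overlap. FN1 was the highest of them in CPM, but VIM was higher than FN1 per exon length. CDH2, of the same list, lay below every control, as 18.8% of all genes did. It was called lower with the split term, as were 10.7% of all genes. The summed level of the 6 epithelial markers was 475, 440 and 390 CPM in siCtrl and 508 and 509 CPM in siFAM53C, which do not overlap. KRT8 was the highest of them in CPM, but KRT18 was higher per length of all annotated exons in siCtrl. For KRT18 and KRT7 the groups overlapped. KRT8 did not pass the main test (adjusted p = 0.2225, edgeR quasi-likelihood test, Benjamini-Hochberg adjusted). With the split term KRT8 was called higher, as were 6.76% of all genes. The part of these markers in the telomere results was not tested.

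Levels of the telomere genes were first ranked in the siCtrl libraries as TPM, counts per exon length scaled to a fixed total, with the length of all annotated exons joined. DKC1 (55.3 ± 1.99, SD, n = 3) and TERF2IP (53.1 ± 4.23, SD, n = 3) were the highest and differed by less than the sum of their SDs. ACD (46.5 ± 2.31, SD, n = 3) and TINF2 (43.2 ± 1.25, SD, n = 3), the genes for the bridge proteins of shelterin, followed and were also not separated. TERF2 had 25.3 ± 2.26 TPM (SD, n = 3), POT1 10.9 ± 0.783 (SD, n = 3) and TERF1 6.73 ± 0.287 (SD, n = 3).
The telomerase catalytic subunit gene TERT stood at 4.37 ± 0.155 TPM (SD, n = 3). This was higher than 27.5% of the genes that passed the filter on low counts and carry a GENCODE symbol. RTEL1 was at 0.828 ± 0.411 TPM (SD, n = 3), and it and TERC were not separated. Within shelterin the genes for the bridging and accessory subunits thus stood above the genes for the DNA-binding proteins TRF1, TRF2 and POT1. The position of TERF1 depends on which length is used, since its annotated exons join to 15706 bases whereas its canonical transcript has 3329. With canonical transcript lengths, an alternative chosen after seeing the data, TERF1 (18.9 TPM) stood above POT1 (14.4 TPM), DKC1 (123 TPM) stood clear of TERF2IP (65.6 TPM), and TINF2 was separated neither from TERF2IP nor from ACD.

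**Figure D1:**
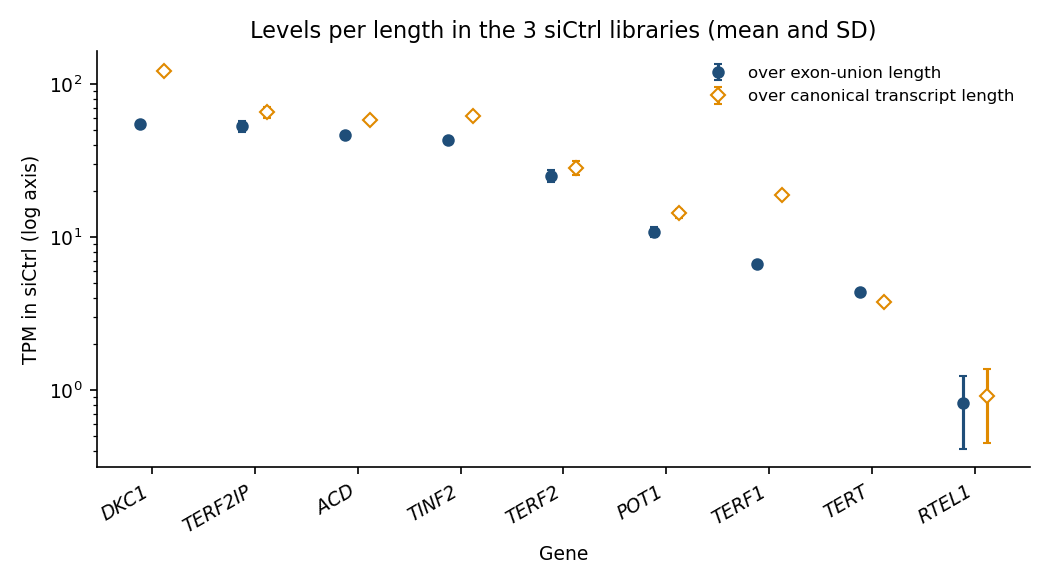
Mean TPM (log axis) of 9 telomere genes in the 3 siCtrl libraries with SD bars, over exon-union length (filled) and canonical transcript length (open). DKC1, TERF2IP, ACD and TINF2 lie highest on both, TERT and RTEL1 lowest, and TERF1 moves from 6.73 to 18.9 TPM between the lengths.

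Against siCtrl, TERF1 was lower in siFAM53C and no other telomere gene of the group passed the test. Of the 10 genes, 9 passed the filter on low counts (all but TERC), and the edgeR quasi-likelihood test, Benjamini-Hochberg adjusted over the 15341 genes tested, called 1 lower and 0 higher. Without adjustment, at a p under 0.05, 2 were lower (TERF1 and DKC1) and 0 higher, and DESeq2 and limma-voom each called 1 lower and 0 higher. Over all genes tested, 533 were lower, or 3.47%, and 75 higher, or 0.489%. At an unadjusted p under 0.05 the shares of all genes were 10.5% lower and 6.61% higher. They were 6.98% and 2.02% by DESeq2, of the 12749 genes to which it gave an adjusted p, and 3.35% and 0.482% by limma-voom. The median log2 fold change of the 9 genes was -0.016, with 5 below 0 and 4 above 0, beside a median of 0.016 over all genes tested. Both siFAM53C libraries lay below all siCtrl libraries for 2 of the 9 (TERF1 and DKC1), where 18.8% of all genes did so, and above them for 1 (TERF2IP), where 16.7% did so. With 9 genes, 1 or 2 in such a pattern is a count near these shares.

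**Figure D2:**
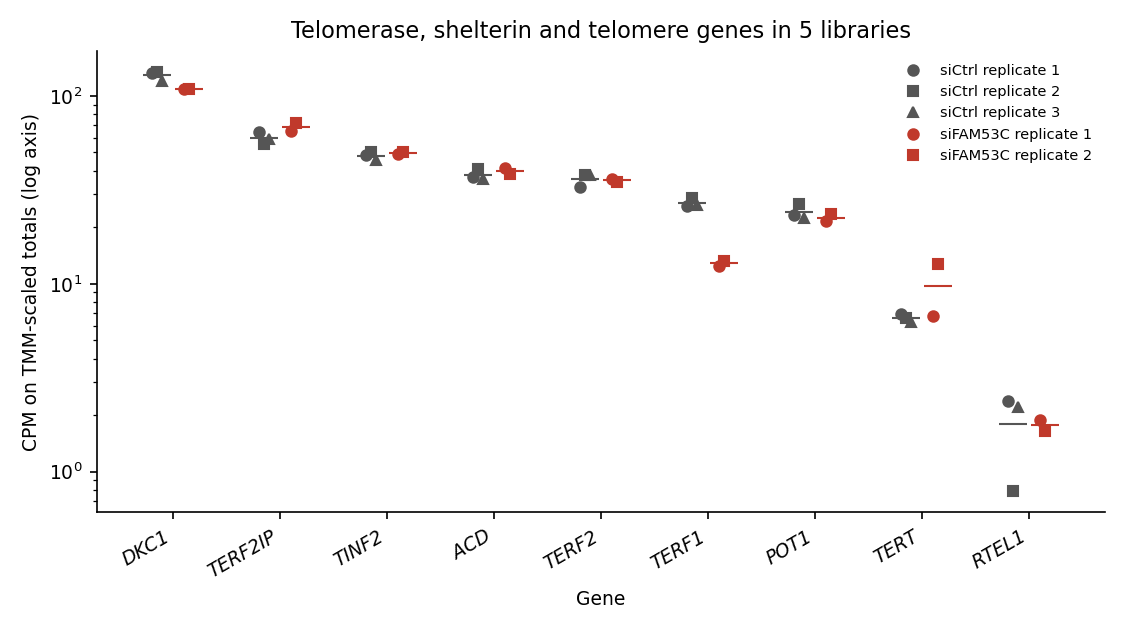
CPM (log axis) of the 9 telomere genes that passed the filter, 1 point per library, with a line at each group mean. The siCtrl and siFAM53C points do not overlap for TERF1, DKC1 and TERF2IP, and the single high TERT point is siFAM53C replicate 2. Distances between genes on this plot are not levels per length.

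TERF1 (ENSG00000147601, chr8:73008856-73048123, plus strand, GRCh38) encodes TRF1, which coats the duplex repeat and aids its replication. It had 25.9, 28.6 and 26.1 CPM in the siCtrl libraries (609, 546 and 499 counts). In the siFAM53C libraries it had 12.5 and 13.2 CPM (330 and 311 counts). Each siFAM53C library was under every siCtrl library and the gap was wider than the range within either group. The means were 26.9 ± 1.49 (SD, n = 3) and 12.8 ± 0.514 (SD, n = 2) CPM. On the log2 scale TERF1 fell by 1.07 (SE 0.14, 95% interval -1.40 to -0.73, adjusted p = 0.007407, edgeR quasi-likelihood test, Benjamini-Hochberg adjusted). As a share of the siCtrl mean it fell by 52.2%. Among the 533 genes called lower it ranked 197 by the size of its fold change, and the median of those genes was -0.89, so its fall was close to that of a typical member of that group. In bulk RNA, fewer cells that express TERF1 and less TERF1 RNA per cell cannot be told apart.
The difference held on both sides of the library split, with -1.12 for siFAM53C replicate 1 and -0.98 for siFAM53C replicate 2. With a term for the split it was also -1.07 (adjusted p = 5.96e-05, edgeR, Benjamini-Hochberg adjusted). The call rests on few libraries: leaving out siCtrl replicate 2, siFAM53C replicate 1 or siFAM53C replicate 2 left the value between -1.11 and -1.02 but raised the adjusted p of the edgeR test to 0.05502, 0.09049 and 0.05581. TERF1 shares no exon bases with another annotated gene, and its 7 annotated pseudogenes (TERF1P1 to TERF1P7) had at most 5 counts in any library.

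TRF1 and TRF2 are related proteins that bind the same repeat as separate homodimers, so their transcripts were set side by side. TERF2 (ENSG00000132604, chr16:69355567-69408571, minus strand), whose product guards the end from being read as a break, had 32.9, 37.9 and 37.9 CPM in siCtrl and 36.2 and 34.9 in siFAM53C. The siFAM53C values lay inside the control range, with a log2 fold change of -0.027 (SE 0.12, 95% interval -0.31 to 0.26), so a change as large as that of TERF1 lies outside the interval. The ratio of TERF1 to TERF2 in TPM, with canonical lengths, was 0.708, 0.678 and 0.621 in the siCtrl libraries. It was 0.310 and 0.340 in the siFAM53C libraries. With exon-union lengths the ratios were 0.282, 0.270 and 0.248 against 0.124 and 0.136. The groups were apart on both lengths, and since the ratio includes TERF1, which was already called, it is given as a description with no test.

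**Figure D3:**
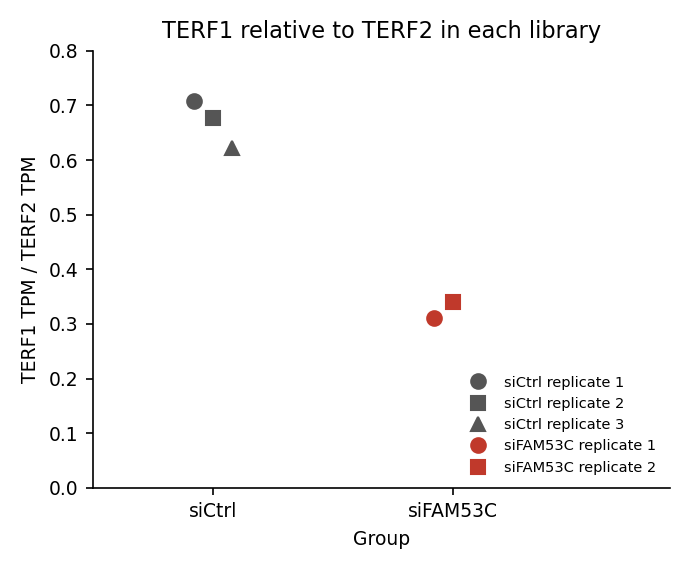
Ratio of TERF1 to TERF2 transcript levels (TPM over TPM, canonical lengths) in each library, 1 point per library, with the axis starting at 0. The siFAM53C libraries sit at 0.310 and 0.340 and the siCtrl libraries between 0.621 and 0.708.

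None of the remaining shelterin genes passed the test. TERF2IP (ENSG00000166848, chr16:75647773-75761872, plus strand), which encodes RAP1, the partner of TRF2, had 64.1, 55.6 and 59.3 CPM in siCtrl and 64.9 and 71.8 in siFAM53C. Both siFAM53C values were above the controls, by less than 1 CPM in replicate 1. The log2 fold change of 0.20 did not pass (SE 0.11, 95% interval -0.07 to 0.46, adjusted p = 0.4469, edgeR quasi-likelihood test, Benjamini-Hochberg adjusted). It was 0.12 without siFAM53C replicate 2 and 0.26 without siFAM53C replicate 1. The opposite-strand gene KARS1 covers 176 of the 4422 exon bases of TERF2IP. TINF2 (ENSG00000092330, chr14:24238286-24242663, minus strand), the gene of the bridging protein TIN2, had 48.2, 50.6 and 45.5 CPM in siCtrl and 49.1 and 50.3 in siFAM53C. Its log2 fold change was 0.046 (SE 0.11, 95% interval -0.20 to 0.30), with both siFAM53C values inside the control range. Opposite-strand genes cover 1220 of its 4378 exon bases, so its value is uncertain if counting ignored strand.
ACD (ENSG00000102977, chr16:67657512-67660810, minus strand) encodes TPP1, which recruits telomerase and carries POT1. It had 37.1, 41.0 and 36.0 CPM in siCtrl and 41.1 and 38.2 in siFAM53C, for a log2 difference of 0.062 (SE 0.12, 95% interval -0.21 to 0.34). POT1 (ENSG00000128513, chr7:124822386-124929983, minus strand), which encodes the overhang-binding protein, had 23.3, 26.6 and 22.4 CPM in siCtrl and 21.5 and 23.5 in siFAM53C. Its log2 fold change was -0.099 (SE 0.14, 95% interval -0.43 to 0.24). For ACD and POT1 the groups overlapped. The antisense gene POT1-AS1 covers 111 of the 8717 exon bases of POT1 and had 6 to 26 counts per library. Inside the sides of the split, the log2 differences of TERF2, TINF2, ACD and POT1 lay between -0.21 and 0.14, and those of TERF2IP were 0.12 and 0.27. The intervals of TERF2, TINF2, ACD and POT1 all leave out a change of the size seen for TERF1, and they do not show that these genes were the same in both groups. Set against TINF2, whose product TRF1 binds, the TERF1 level per length was 0.149, 0.157 and 0.160 (TPM over TPM, exon-union lengths) in siCtrl and 0.071 and 0.073 in siFAM53C.

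TERT (ENSG00000164362, chr5:1253147-1295068, minus strand) was near 6.5 CPM in 4 of the 5 libraries. The siCtrl libraries had 6.88, 6.54 and 6.29 CPM (162, 125 and 120 counts). The siFAM53C libraries had 6.73 CPM (178 counts) in replicate 1 and 12.8 CPM (301 counts) in replicate 2. Only siFAM53C replicate 2 stood out, and siFAM53C replicate 1 lay inside the control range. The means were 6.57 ± 0.296 (SD, n = 3) and 9.75 ± 4.28 (SD, n = 2) CPM, and the log2 fold change of 0.57 did not pass (SE 0.29, 95% interval -0.11 to 1.24, adjusted p = 0.3795, edgeR quasi-likelihood test, Benjamini-Hochberg adjusted). Inside the sides of the split the difference was 0.0044 for siFAM53C replicate 1 and 1.01 for siFAM53C replicate 2. A single library set the value: it was 0.032 with siFAM53C replicate 2 left out and 0.95 with siFAM53C replicate 1 left out, and neither passed. An opposite-strand gene covers 106 of the 5920 exon bases of TERT.

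Genes whose log2 CPM followed that of TERT most closely over the 5 libraries were sought among genes with a mean of at least 10 CPM, by the distance between mean-centred profiles. The closest were a gene listed as ENSG00000225553 without a symbol (distance 0.201), ZDHHC18 (0.246), MAFK (0.301), ZC3H12A (0.352) and LGALS3 (0.366). ZDHHC18, which encodes a palmitoyltransferase, had 45.0, 46.3 and 45.1 CPM in siCtrl and 47.4 and 74.3 in siFAM53C. Like TERT, it was level in 4 libraries and high in siFAM53C replicate 2. MAFK, a small MAF transcription factor gene, had 33.6, 30.7 and 36.3 CPM in siCtrl and 35.6 and 56.1 in siFAM53C, again with its maximum in that library. Profiles over 5 libraries share their library effects, and these likenesses are descriptions without a test.

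DKC1 (ENSG00000130826, chrX:154762742-154777689, plus strand), whose product dyskerin also modifies ribosomal RNA, had 133, 134 and 121 CPM in siCtrl and 109 and 108 in siFAM53C. Both siFAM53C values lay under the lowest control. The means were 129 ± 7.65 (SD, n = 3) and 108 ± 0.314 (SD, n = 2) CPM, a difference of -16.2%, and the log2 fold change of -0.26 did not pass over all genes (SE 0.10, 95% interval -0.49 to -0.02, unadjusted p = 0.03785, adjusted p = 0.2551, edgeR quasi-likelihood test, Benjamini-Hochberg adjusted). It was -0.30 and -0.16 inside the sides of the split, and -0.24 with a term for the split (adjusted p = 0.05326, the same edgeR test). Of the exon bases of DKC1, 261 are shared with small RNA genes that lie inside it.

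RTEL1 (ENSG00000258366, chr20:63657810-63696253, plus strand) was measured with few reads: 56, 15 and 42 counts in siCtrl against 50 and 39 in siFAM53C. In CPM these were 2.38, 0.785 and 2.20 against 1.89 and 1.66, so the siFAM53C values lay inside a wide control range. The log2 fold change was -0.016 (SE 0.52, 95% interval -1.21 to 1.18), an interval that spans a fall as large as that of TERF1 and a rise of the same size, so these libraries do not settle whether RTEL1 changed. The read-through gene RTEL1-TNFRSF6B on the same strand covers 4522 of its 8542 exon bases. It had 160, 78 and 104 counts in siCtrl and 93 and 215 in siFAM53C, and reads from shared exons cannot be told apart.

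**Figure D4:**
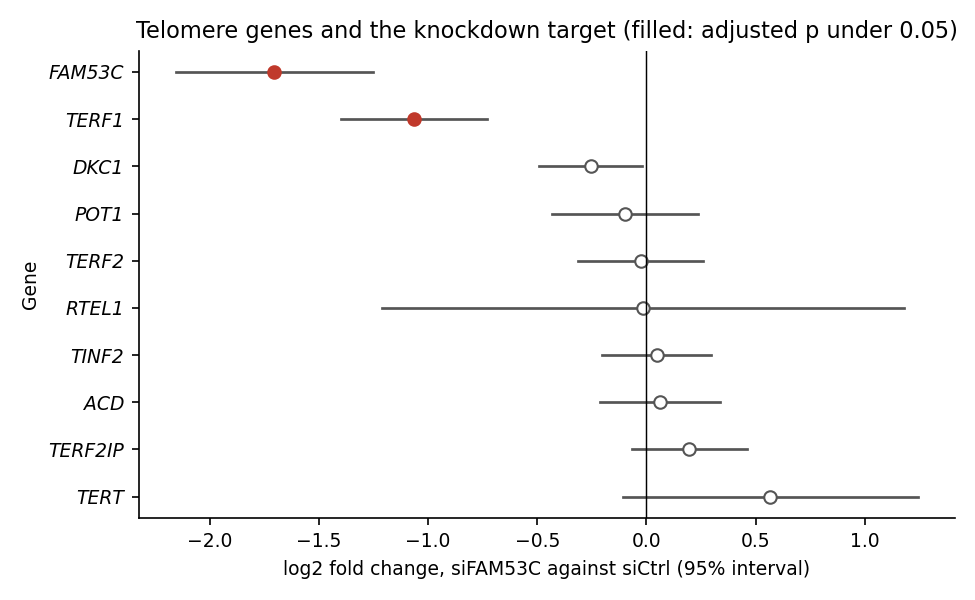
Log2 fold change (siFAM53C against siCtrl) with 95% intervals for the knockdown target FAM53C and the 9 tested telomere genes, filled where the adjusted p was under 0.05. FAM53C (-1.71) and TERF1 (-1.07) are filled, and the interval of RTEL1 runs from -1.21 to 1.18.

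The wider telomere machinery was read from 58 further genes in 5 lists, of which 54 passed the filter on low counts. By the edgeR quasi-likelihood test, Benjamini-Hochberg adjusted, 1 was lower (FEN1) and 0 were higher, beside 3.47% and 0.489% of all genes. The unadjusted p was under 0.05 for 5 with lower and 4 with higher values, DESeq2 called 2 lower and 1 higher, and limma-voom called 1 lower and 0 higher. Beside the shares of all genes (10.5% and 6.61% at an unadjusted p, and 6.98% and 2.02% by DESeq2, which gave no adjusted p for SHLD1 and DAXX), these counts were near or below those shares. The split term gave 4 lower and 5 higher, where 10.7% and 6.76% of all genes were called. The median of the 54 genes was -0.064, with 30 below 0 and 24 above 0. Both siFAM53C libraries lay below all controls for 14 and above them for 8, beside 18.8% and 16.7% of all genes.

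**Figure D5:**
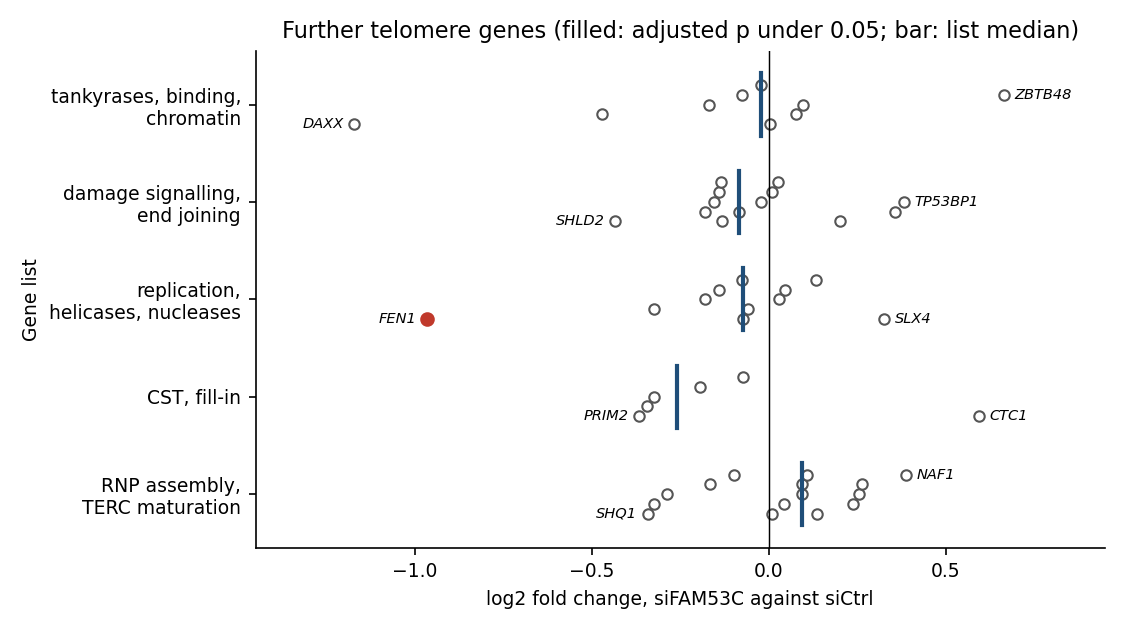
Log2 fold change (siFAM53C against siCtrl) of the 54 further telomere genes by list, 1 point per gene, with a bar at each list's median and a filled point for an adjusted p under 0.05. FEN1 is the only filled point, and the list medians lie between -0.26 and 0.094.

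No gene that builds telomerase around TERC passed the test. Of 15 listed, all tested, 0 were lower (1 at an unadjusted p under 0.05 and 0 by DESeq2), and 0 were higher (2 without adjustment and 0 by DESeq2), all by edgeR unless named otherwise, with a median of 0.094. The shares of all genes were 10.5% and 6.61% without adjustment, and 6.98% and 2.02% by DESeq2. Both siFAM53C libraries lay below every control for 3 of the 15 and above every control for 5, beside 18.8% and 16.7% of all genes. The partners of dyskerin in the mature particle, named after their values were seen, had log2 fold changes of 0.094 (NOP10), 0.094 (NHP2) and 0.24 (GAR1), and none passed. NAF1, an assembly factor that GAR1 later replaces, averaged 26.1 ± 0.910 CPM (SD, n = 3) in siCtrl against 34.2 ± 2.88 (SD, n = 2) in siFAM53C. SHQ1, the chaperone that holds dyskerin before assembly, had 23.3 ± 2.14 (SD, n = 3) and 18.4 ± 1.24 (SD, n = 2) CPM. Their log2 fold changes of 0.39 and -0.34 did not pass, and neither did that of RUVBL2 (0.27), a helicase-like assembly factor and the most abundant of the list. With the split term, NAF1 and RUVBL2 were called higher, 2 of 15 beside 6.76% of all genes.

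The CST complex (CTC1, STN1 and TEN1) and DNA polymerase alpha-primase refill the strand opposite to the one telomerase extends. TEN1 had 0 counts in all libraries, and the read-through gene TEN1-CDK3 covers 974 of its 1283 exon bases. Of the other 6 genes, 0 were called lower (2 at an unadjusted p under 0.05 and 0 by DESeq2), and 0 were higher (1 without adjustment and 1 by DESeq2) by edgeR, beside 10.5% lower and 6.61% higher of all genes at an unadjusted p and 6.98% and 2.02% by DESeq2. The median was -0.26, with 5 below 0. CTC1, the large subunit of CST, had 16.4, 14.4 and 15.1 CPM in siCtrl and 21.8 and 24.5 in siFAM53C. Its direction was opposite to that of the other 5, at 0.59 on the log2 scale (SE 0.15, adjusted p = 0.07854, edgeR quasi-likelihood test, Benjamini-Hochberg adjusted), and it was called higher by DESeq2 and with the split term. The primase subunit gene PRIM2 had a log2 fold change of -0.37 and the polymerase alpha subunit gene POLA2 one of -0.33. In both, the siFAM53C libraries lay below every control, as in 3 of the 6 genes, beside 18.8% of all genes. PRIM2 and POLA2 were called lower with the split term but not by DESeq2. That term called 2 of the 6 lower and 1 higher, beside 10.7% and 6.76% of all genes. Of the 12006 exon bases of POLA2, 2012 are shared with a same-strand gene and 543 with an opposite-strand gene.

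FEN1, a flap endonuclease that trims Okazaki fragments and helps copy the lagging strand of telomeres, was the 1 call among 11 genes of telomere replication, beside 3.47% of all genes called lower. It had 147, 131 and 110 CPM in siCtrl and 70.2 and 62.4 in siFAM53C. The siFAM53C libraries were well under the lowest control, and on the log2 scale FEN1 fell by 0.97 (SE 0.14, adjusted p = 0.01235, edgeR quasi-likelihood test, Benjamini-Hochberg adjusted), with -0.99 and -0.82 inside the sides of the split. Leaving out siCtrl replicate 1 or 2 or either siFAM53C library took the adjusted p of edgeR above 0.05 (0.0561 to 0.1044), with values between -1.06 and -0.86. The median of the list was -0.073, and both siFAM53C libraries lay below every control for 4 of the 11, beside 18.8% of all genes. FEN1 acts in all DNA replication, and the 12 proliferation genes listed beside it (MKI67, PCNA, MCM genes and others) had a median of -0.18 with all 12 below 0 and 0 called lower by edgeR (1 at an unadjusted p under 0.05, and 4 with the term for the split). Of all 15341 genes, 7391 were below 0, 10.5% were lower at an unadjusted p and 10.7% with the term for the split. Their summed level was 3505, 3608 and 4063 CPM in siCtrl and 3133 and 3520 in siFAM53C, with MKI67 the most abundant, and their part in the values of FEN1, POLA2, PRIM2 and TERF1 was not tested.

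Genes that sense or join unprotected ends numbered 13, all tested, with a median of -0.085. By edgeR, 0 were lower (1 at an unadjusted p under 0.05 and 1 by DESeq2), and 0 were higher (1 without adjustment and 0 by DESeq2), counts near the shares of all genes (10.5% and 6.61% at an unadjusted p, and 6.98% and 2.02% by DESeq2). SHLD2, a subunit of shieldin, which limits trimming of ends, averaged 107 ± 2.36 CPM (SD, n = 3) in siCtrl against 78.8 ± 0.445 (SD, n = 2) in siFAM53C. Its log2 fold change of -0.43 was just outside the threshold (SE 0.10, adjusted p = 0.05242, edgeR quasi-likelihood test, Benjamini-Hochberg adjusted) and was called by DESeq2 and with the term for the split. TP53BP1, which acts above shieldin at breaks, had a log2 fold change of 0.38 and was called higher with that term but not by DESeq2. The split term called 1 of the 13 lower and 1 higher, beside 10.7% and 6.76% of all genes. Opposite-strand genes cover 464 of the 4239 exon bases of SHLD2 and 3732 of the 12976 of TP53BP1. XRCC5, the Ku80 gene, was the highest of the list by mean CPM in siCtrl. The siCtrl and siFAM53C means were 704 ± 49.5 (SD, n = 3) and 620 ± 54.6 (SD, n = 2) CPM. This difference was near the spread. Per length XRCC6 stood above XRCC5, with 826 against 506 TPM in siCtrl (exon-union lengths).
Among 12 tankyrase, telomere-binding and telomere chromatin genes, 9 were tested, and the untested TERB1, TERB2 and MAJIN act at telomeres in meiosis. Of the 9, 0 were called in either direction by edgeR, at an unadjusted p under 0.05 or by DESeq2, with a median of -0.022. The shares of all genes at these thresholds were 3.47% lower and 0.489% higher, 10.5% and 6.61%, and 6.98% and 2.02%. DAXX, a histone chaperone gene with a mean of 0.741 CPM in siCtrl, had a log2 fold change of -1.17 with an SE of 0.81, and ZBTB48, which encodes a protein that binds the repeat directly, one of 0.66 with an SE of 0.29. The value of DAXX ran from -0.56 without siCtrl replicate 2 to -1.68 without siFAM53C replicate 2. That of ZBTB48 ran from 0.42 without siFAM53C replicate 2 to 0.97 without siCtrl replicate 3. Without siCtrl replicate 3 it was called higher (adjusted p = 0.03103, edgeR quasi-likelihood test, Benjamini-Hochberg adjusted). In DAXX and ZBTB48 the groups overlapped. A same-strand gene covers 441 of the 3084 exon bases of DAXX. ZBTB48 was called higher with the split term, 1 of 9 beside 6.76% of all genes. The most abundant was NR2F2 (278 ± 25.5, SD, n = 3, and 264 ± 20.8, SD, n = 2, CPM), a nuclear receptor gene.

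The heptamer GACAAGA, picked from an earlier analysis of these data and not tested here against expression, was sought in the longest annotated 3′ UTR of each gene, on the transcript strand only. It was in 0 of the 9 tested telomere genes, TERF1 included (3′ UTR of 1986 bases), and in 11.6% of 12075 tested genes with a 3′ UTR. With 9 genes, a count of 0 is near that share. Of the 54 further genes, 7 hold it (13.0%): TP53BP1, ATRX, STN1, TIMELESS, ATM, NR2C2 and NBN. FEN1 is not among them, and the knockdown target FAM53C holds it once. These are matches of letters in an annotated sequence and not measurements.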

How the data were processed

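RNA-seq counts of 3 siCtrl and 2 siFAM53C libraries of RPE-1 cells were used. The authors deposited raw counts per gene, made with CutAdapt 2.10, HISAT2 on hg38 (reverse strandedness) and featureCounts, whose strand setting and annotation release are not given in the sources used here. Symbols, positions and lengths came from GENCODE 44. In R 4.3.3, edgeR 4.0.16 was run on all 15341 genes left by filterByExpr (minimum count 10, minimum total 15) with TMM factors, a robust quasi-likelihood fit of condition only, and Benjamini-Hochberg adjustment (threshold 0.05). Scripts were tested on simulated data. DESeq2 1.42.0, limma-voom (limma 3.58.1), other scalings and filters, replicate blocks, a term for the library split and each library left out were alternatives. Canonical lengths and a fit without robust estimation were added after seeing the data. Depth limits the precision for genes of few counts. The genes and lists were chosen with earlier results of these data known, and so was the use of a split. Its sides were set here at the median of the first principal component of the same 5 libraries. Named genes were the 10 genes, FAM53C, the 5 most like TERT and holders of the heptamer. From each further list they were every called gene, or else its 2 of largest absolute log2 fold change and its most abundant gene by CPM. NOP10, NHP2 and GAR1 were added after their values were seen.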

Additional observations from a re-analysis of the deposited data

How the results depend on the processing

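TERF1 kept its direction under all 16 alternatives (log2 fold change -1.11 to -0.99, adjusted p 2.635e-07 to 0.09049) and was not called in the 3 that leave out siCtrl replicate 2 or either siFAM53C library. Lower and higher genes numbered 533 and 75 over all genes with the settings of the report. They numbered 890 and 257 with DESeq2, 961 and 375 without a filter on low counts, 856 and 355 with a replicate block by titles, 1350 and 642 with a replicate block by column names, 1636 and 1037 with the term for the library split, and 1607 and 1014 at an unadjusted p. Higher genes numbered 121 with total counts only. With 1 library left out the ranges were 157 to 886 and 6 to 414. Of the 9 telomere genes, 2 were lower at an unadjusted p, and 0 to 1 with 1 library left out. Of the further genes, 2 were lower and 1 higher with DESeq2, with no filter and with the replicate block by column names, 2 and 2 with the replicate block by titles, 4 and 5 with the split term, and 5 and 4 at an unadjusted p. Leaving out 1 library gave 0 to 3 lower and 0 to 2 higher. What caused these shifts was not tested.
TERF2 and RTEL1, both within their errors of 0, changed sign. TERF2 was 0.045 with total counts only, 0.010 and 0.012 with the replicate blocks by titles and by column names, and -0.092 to 0.015 with 1 library left out, above 0 without siCtrl replicate 2 (0.0080) or 3. RTEL1 was 0.10 with limma-voom, 0.052 with total counts only, 0.32 with the replicate block by titles, and -0.37 to 0.25 with 1 library left out, above 0 without siCtrl replicate 1, siCtrl replicate 3 or siFAM53C replicate 2.
With 2 pairs, the library numbers were treated as names only. Deviations of same-numbered libraries correlated at 0.169 and -0.285 by titles, and at 0.169 and 0.371 by column names, where siFAM53C replicate 2 carries the number of siCtrl replicate 3. With 2 siFAM53C libraries, their deviations from the group mean are equal and opposite, so these correlations are not independent and do not decide the pairing. TERF1 was -1.08 and -1.02 with the replicate block by titles and by column names. SHLD2 was called lower with both blocks, CTC1 higher with the block by column names, and TP53BP1 and ZBTB48 higher with the block by titles.
Limits are the low counts of RTEL1 and TERC, whose cause was not tested, 2 siFAM53C libraries, 1 siRNA pool, and exons shared between genes.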
